A study of Homo sapiens with 6 samples.

Results

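Aminoacyl-tRNA synthetases join each amino acid to its transfer RNA, the step that decides which amino acid a codon brings into a protein. This account follows the nascent RNA of 36 synthetase genes, 20 for cytosolic enzymes and 16 for mitochondrial enzymes, out of 22984 genes listed on the sense strand. A gene was a member where its sense row carried a synthetase symbol, and symbols ending in 2 were taken as mitochondrial. The rule uses no measured value, although the family was proposed with earlier results of these data known. All 36 members had a row in every library.

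The libraries came from HCT116 cells, a long-established line grown from a human colorectal carcinoma, and were made by Bru-seq, which captures RNA labelled with bromouridine and so reports RNA made during the labelling time. Every culture was labelled for 30 min and gave 1 library. The groups were the vehicle DMSO at 0.01% for 4 h (n = 2), GSTO1 siRNA at 10 nM for 24 h (siGSTO1, n = 1), the GSTO1 inhibitor C1-27 at 1 μM for 4 h (n = 1) and for 24 h (n = 1), and its inactive analogue C1-14 at 10 μM for 4 h (n = 1). GSTO1 is glutathione S-transferase omega 1. The siRNA time of 24 h is that of the sample labels, while the wording of the study's methods can be read as 4 h. A non-targeting siRNA culture and a DMSO culture at 24 h were not analysed here, so time in culture and transfection cannot be told apart from treatment in the 24 h libraries. All 4 treatments were compared with the same DMSO cultures, and nothing in the sample descriptions says how those cultures were kept apart. Each p-value therefore rests only on the spread between these DMSO samples, and the spread within a treatment was not measured.

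Cytosolic and mitochondrial translation use separate sets of these enzymes, most of them encoded by separate nuclear genes. GARS (glycyl-tRNA synthetase) and KARS (lysyl-tRNA synthetase) are exceptions, since each of these genes makes the enzyme for both compartments. Several cytosolic enzymes are held together in a multisynthetase complex on the scaffold proteins AIMP1, AIMP2 and EEF1E1, while the others act outside it. Many cytosolic synthetase genes are known targets of ATF4, the transcription factor of the amino acid response, which binds composite C/EBP-ATF elements.

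Sense counts per library were between 18112861 and 36841146. RPKM, the read count of a gene scaled to its length and to the mapped reads of the library, was taken as deposited, and a fold change is the RPKM of a treated library divided by the mean of the DMSO pair. Genes were counted when they were over 300 bp long, had a mean of treated and control RPKM above 0.5, and differed at least 1.4-fold in either direction. GSTO1 itself was at 3.51 and 3.72 RPKM in the DMSO cultures, 2.70 in siGSTO1, 3.78 and 4.21 in C1-27 at 4 h and 24 h, and 3.82 in C1-14. Its log2 fold change in siGSTO1 was −0.54 ± 0.27 (SE, edgeR quasi-likelihood test, adjusted p = 0.314). Bru-seq reads RNA as it is made, and an siRNA acts on finished RNA, so this value does not measure the knockdown. The epithelial marker EPCAM was at 2.91 to 3.89 RPKM in all 6 libraries, KRT8 at 3.90 to 10.5 and KRT18 at 3.89 to 11.9, CDH1 was lower at 0.321 to 0.617, and the summed level of PTPRC, COL1A1, PECAM1 and ALB, markers of other cell types, was 0.276 to 0.533 RPKM.

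All 20 cytosolic genes and 14 of the 16 mitochondrial genes passed the RPKM minimum, set on the mean of treated and control, against the mean of DMSO. TARS2 and VARS2, for the mitochondrial threonyl and valyl enzymes, stayed below it at 0.410 to 0.447 and 0.256 to 0.358 RPKM. In single libraries CARS was under 0.5 RPKM in DMSO 2 (0.457) and C1-27 at 4 h (0.498), and FARS2 in siGSTO1 (0.489). In DMSO the highest cytosolic gene was IARS (isoleucyl-tRNA synthetase) at a mean of 4.94 ± 0.142 RPKM (SD, n = 2), and the lowest was CARS (cysteinyl-tRNA synthetase) at 0.597 ± 0.198. The highest mitochondrial genes were MARS2 at 2.43 ± 0.246 and HARS2 at 2.39 ± 0.546 RPKM, a pair that did not differ beyond their spread. IARS alone took 11.1% of the summed cytosolic RPKM, and MARS2 took 11.9% of the mitochondrial sum.

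The summed RPKM of the 20 cytosolic genes was 46.9 and 42.3 in the DMSO cultures, 43.9 and 44.3 in C1-27 at 4 h and 24 h, 46.6 in C1-14 and 56.9 in siGSTO1. The siGSTO1 library lay above both DMSO cultures, and the inhibitor and analogue libraries lay between them. For the 16 mitochondrial genes the sums were 21.7 and 19.2 in DMSO, 20.1, 19.2 and 19.4 in the same order of the other libraries, and 18.1 in siGSTO1. The ratio of the cytosolic to the mitochondrial sum was 2.16 and 2.20 in DMSO, 2.19 and 2.31 in C1-27 at 4 h and 24 h, 2.40 in C1-14 and 3.15 in siGSTO1, the highest of the 6 libraries.

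**Figure D1:**
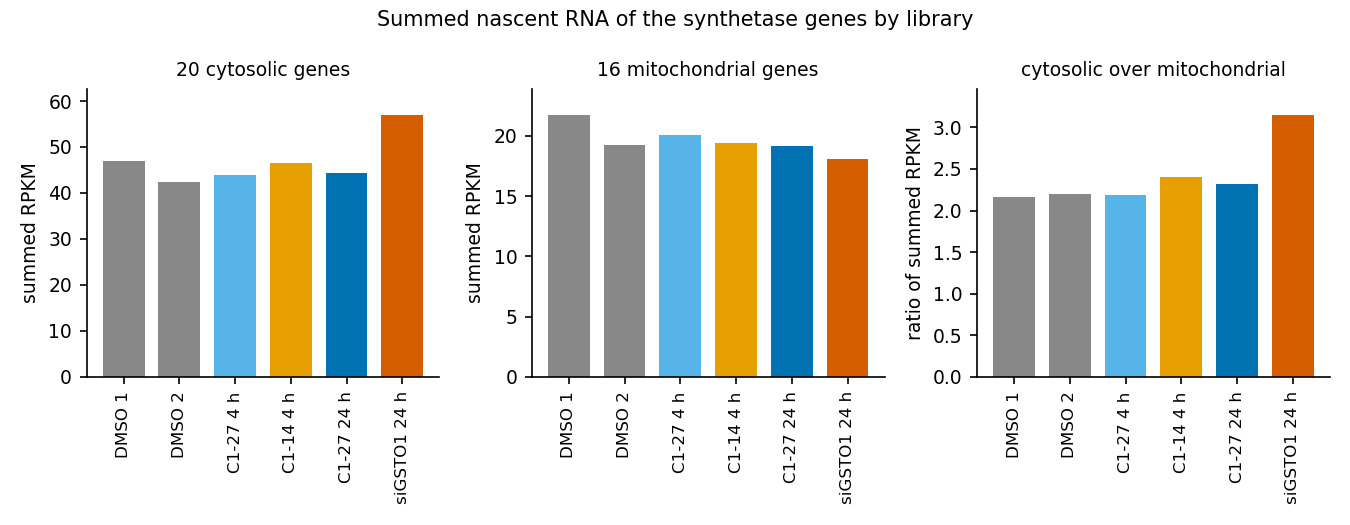
Summed RPKM of the 20 cytosolic genes (left) and the 16 mitochondrial genes (middle) in each of the 6 libraries, and the ratio of the 2 sums (right). Each bar is 1 library. The siGSTO1 library has the highest cytosolic sum, 56.9, the lowest mitochondrial sum, 18.1, and a ratio of 3.15 against 2.16 to 2.40 in the others.

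In siGSTO1, 8 of the 20 cytosolic genes were at least 1.4-fold higher than the mean of DMSO (10.5% of all 8138 genes passing the filter) and 1 was at least 1.4-fold lower (6.48% of all genes). None of the 14 mitochondrial genes that passed was higher and 1 was lower. The median log2 fold change was 0.28 over the cytosolic genes and −0.21 over the mitochondrial ones, against −0.00072 over all genes passing the filter. The 8 higher genes were CARS, SARS, AARS, MARS, GARS, YARS, TARS and EPRS, and the lower ones were FARSB and the mitochondrial CARS2. All 8 were also past 1.4-fold when either DMSO culture stood alone as the control (6.49% of all genes), as FARSB and CARS2 did in the lower direction (3.29% of all genes). With edgeR's quasi-likelihood test over 14431 genes, 5 cytosolic genes rose (3.69% of all genes tested) and CARS2 fell (1.21% of all genes tested) at an adjusted p under 0.05.

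CARS, which charges cysteine (chr11:3022152-3078681, minus strand, hg19), had the largest rise of the family. Its RPKM was 0.737 and 0.457 in the DMSO cultures, 0.498 and 0.708 in C1-27 at 4 h and 24 h, 0.536 in C1-14 and 1.61 in siGSTO1. The siGSTO1 value stood above every other library, and the inhibitor and analogue libraries lay within the DMSO range. CARS was 2.70-fold higher than the mean of DMSO, with a log2 fold change of 1.33 ± 0.25 (SE, edgeR adjusted p = 2.6e-05). These values rest on 975 and 1054 counts in DMSO and 2392 in siGSTO1.

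SARS, for serine (chr1:109756515-109780804, plus strand), was at 1.63 and 1.70 RPKM in DMSO, 1.79 and 1.99 in C1-27 at 4 h and 24 h, 1.89 in C1-14 and 3.60 in siGSTO1. The DMSO cultures were close to each other, the inhibitor and analogue libraries were slightly above them, and siGSTO1 was far above all. The fold change was 2.17, and the log2 fold change of the test was 1.00 ± 0.25 (SE, edgeR adjusted p = 0.00315).

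AARS, for alanine (chr16:70286297-70323412, minus strand), had 1.13 and 0.802 RPKM in DMSO, 0.916 and 1.09 in C1-27 at 4 h and 24 h, 0.978 in C1-14 and 1.99 in siGSTO1. MARS, the methionyl enzyme of the multisynthetase complex (chr12:57881736-57910438, plus strand), had 1.66 and 1.04, then 1.28 and 1.52, 1.37 and 2.77 RPKM in the same order. In both genes siGSTO1 was above all other libraries, which stayed within the range of the DMSO cultures. The fold change was 2.05 for each, with log2 fold changes of 0.94 ± 0.26 for AARS and 0.94 ± 0.25 for MARS (SE, edgeR adjusted p = 0.00981 and 0.00847). The MARS gene overlaps DDIT3 on the opposite strand by 68 bp, and DDIT3 was at 1.21 and 0.848 RPKM in DMSO and 3.61 in siGSTO1. Antisense counts over MARS were 29 to 88 per library. The overlap is 0.237% of the MARS gene. Whether every library was made strand specific is not stated. Antisense counts per library were 0 to 2 over CARS and 0 to 4 over IARS. Their sense counts were 975 to 2392 and 9814 to 17941, so reads of these genes were told apart by strand in every library.

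GARS, for glycine in both compartments (chr7:30634181-30673648, plus strand), was at 3.38 and 2.87 RPKM in DMSO, 3.07 and 3.59 in C1-27 at 4 h and 24 h, 3.20 in C1-14 and 6.14 in siGSTO1. C1-27 at 24 h was just above the DMSO range and siGSTO1 well above it. The fold change was 1.96 and the log2 fold change 0.86 ± 0.24 (SE, edgeR adjusted p = 0.0122). KARS, the other gene that serves both compartments, was at 3.86 and 3.64 RPKM in DMSO and 3.05 in siGSTO1, below both, and its fold change of 0.814 did not pass the test (edgeR adjusted p = 0.476).

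YARS, TARS and EPRS passed the fold threshold and not the edgeR test. YARS, for tyrosine (chr1:33240840-33283633, minus strand), was at 2.16 and 1.99 RPKM in DMSO, 2.05 and 2.10 in C1-27 at 4 h and 24 h, 2.13 in C1-14 and 3.67 in siGSTO1. TARS, for threonine (chr5:33440898-33468196, plus strand), was at 3.42 and 3.30, then 3.28 and 3.73, 3.69 and 5.30 RPKM. EPRS, the glutamyl-prolyl enzyme of the complex (chr1:220141942-220220000, minus strand), was at 1.65 and 1.54, then 1.58 and 1.68, 1.74 and 2.46 RPKM. In all 3 genes the siGSTO1 library was above the other 5. Their fold changes were 1.77, 1.58 and 1.54, with edgeR adjusted p = 0.0593, 0.216 and 0.27.

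FARSB was the cytosolic gene with the lowest fold change. It encodes the beta subunit of phenylalanyl-tRNA synthetase (chr2:223436162-223520827, minus strand) and was at 3.84 and 4.01 RPKM in DMSO, 4.02 and 3.26 in C1-27 at 4 h and 24 h, 3.84 in C1-14 and 2.69 in siGSTO1. The siGSTO1 library was the lowest and C1-27 at 24 h the next. The fold change was 0.684 in siGSTO1 (edgeR adjusted p = 0.171). FARSA, the alpha subunit of the same enzyme, was at 1.96 and 1.28 RPKM in DMSO and 1.73 in siGSTO1, between the DMSO cultures.

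**Figure D2:**
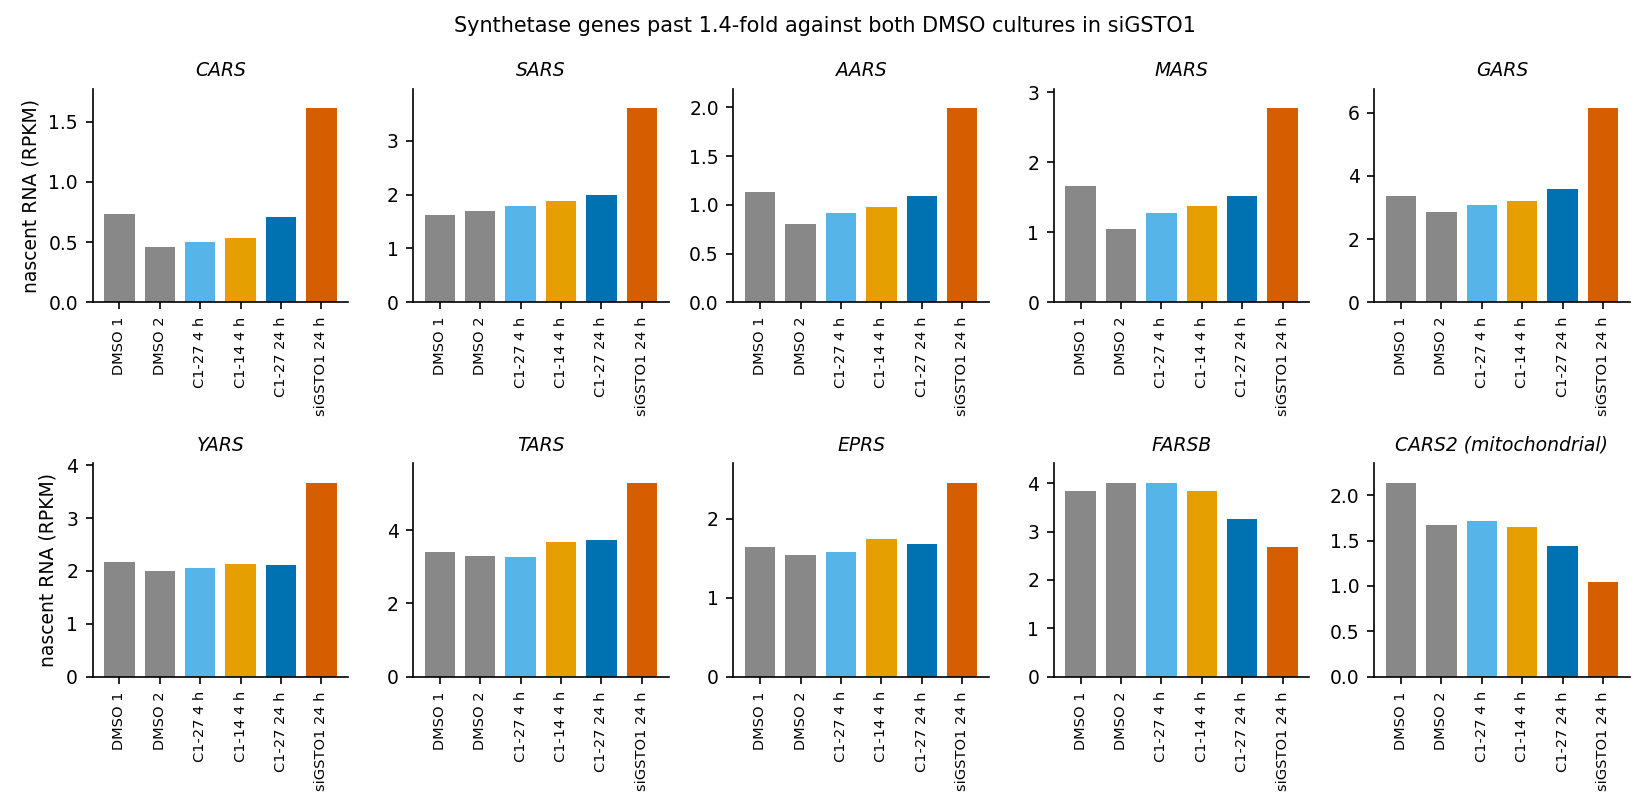
RPKM of the 10 synthetase genes that differed at least 1.4-fold from both DMSO cultures in siGSTO1, with 1 bar for each library. CARS reaches 1.61 in siGSTO1 against 0.457 to 0.737 in the other libraries, and CARS2 drops to 1.04 against 1.43 to 2.14.

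The remaining 11 cytosolic genes had fold changes in siGSTO1 between 0.814 for KARS and 1.35 for NARS (asparaginyl-tRNA synthetase). LARS, for leucine, was at 1.28-fold and QARS, for glutamine, at 1.16-fold. IARS, WARS and FARSA, for isoleucine, tryptophan and phenylalanine, were at 1.07-fold each. VARS, RARS, HARS and DARS, for valine, arginine, histidine and aspartate, were at 0.921, 0.905, 0.897 and 0.872. None of the 11 passed the edgeR test. Among the 8 enzymes of the multisynthetase complex, 2 were at least 1.4-fold higher, MARS and EPRS (10.5% of all genes), and the median log2 fold change was 0.15. Among the 12 cytosolic genes outside the complex, 6 did, also against 10.5% of all genes, with a median of 0.55. Class I and class II enzymes, the 2 structural families of synthetases, each gave 4 higher genes of 10 against the same background, with medians of 0.28 and 0.26. The glutamyl-prolyl enzyme EPRS was counted in class I alone, so the even split depends on that choice.

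CARS2, the mitochondrial cysteinyl enzyme (chr13:111293757-111358480, minus strand), moved the opposite way from CARS. It was at 2.14 and 1.67 RPKM in DMSO, 1.72 and 1.43 in C1-27 at 4 h and 24 h, 1.65 in C1-14 and 1.04 in siGSTO1. The siGSTO1 library was the lowest, and C1-27 at 24 h and C1-14 were also below both DMSO cultures. CARS2 fell by 0.98 ± 0.26 on the log2 scale in siGSTO1 (SE, edgeR adjusted p = 0.00646), with a fold change of 0.547, and rested on 3238 and 4416 counts in DMSO and 1770 in siGSTO1.

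The other mitochondrial genes stayed within 1.4-fold of the mean of DMSO in siGSTO1, and none passed the edgeR test. MARS2, for methionine, was next lowest at 2.60 and 2.26 RPKM in DMSO, 2.25 and 1.81 in C1-27 at 4 h and 24 h, 2.07 in C1-14 and 1.94 in siGSTO1, a fold change of 0.797. WARS2, for tryptophan, was at 0.707 and 0.723, then 0.744 and 0.645, 0.660 and 0.575 RPKM, a fold change of 0.804. In MARS2 the siGSTO1 library was below both DMSO cultures but not the lowest, and in WARS2 it was the lowest.

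At the other end of the mitochondrial group, PARS2, for proline, was at 0.575 and 0.580 RPKM in DMSO, 0.561 and 0.695 in C1-27 at 4 h and 24 h, 0.573 in C1-14 and 0.701 in siGSTO1. HARS2, for histidine, was at 2.78 and 2.00, then 2.26 and 2.60, 2.22 and 2.53 RPKM. IARS2, for isoleucine, was at 1.25 and 1.20, then 1.24 and 1.34, 1.52 and 1.28 RPKM. Their fold changes in siGSTO1 were 1.21, 1.06 and 1.05. The HARS2 value lay between the DMSO cultures, and PARS2 rested on 103 to 245 counts per library. In all, 8 of the 14 mitochondrial genes were below both DMSO cultures in siGSTO1 and 2 were above both, while 6 of the 20 cytosolic genes were below both and 12 above. Over all 8138 genes, 34.2% were below both and 35.2% above both.

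**Figure D3:**
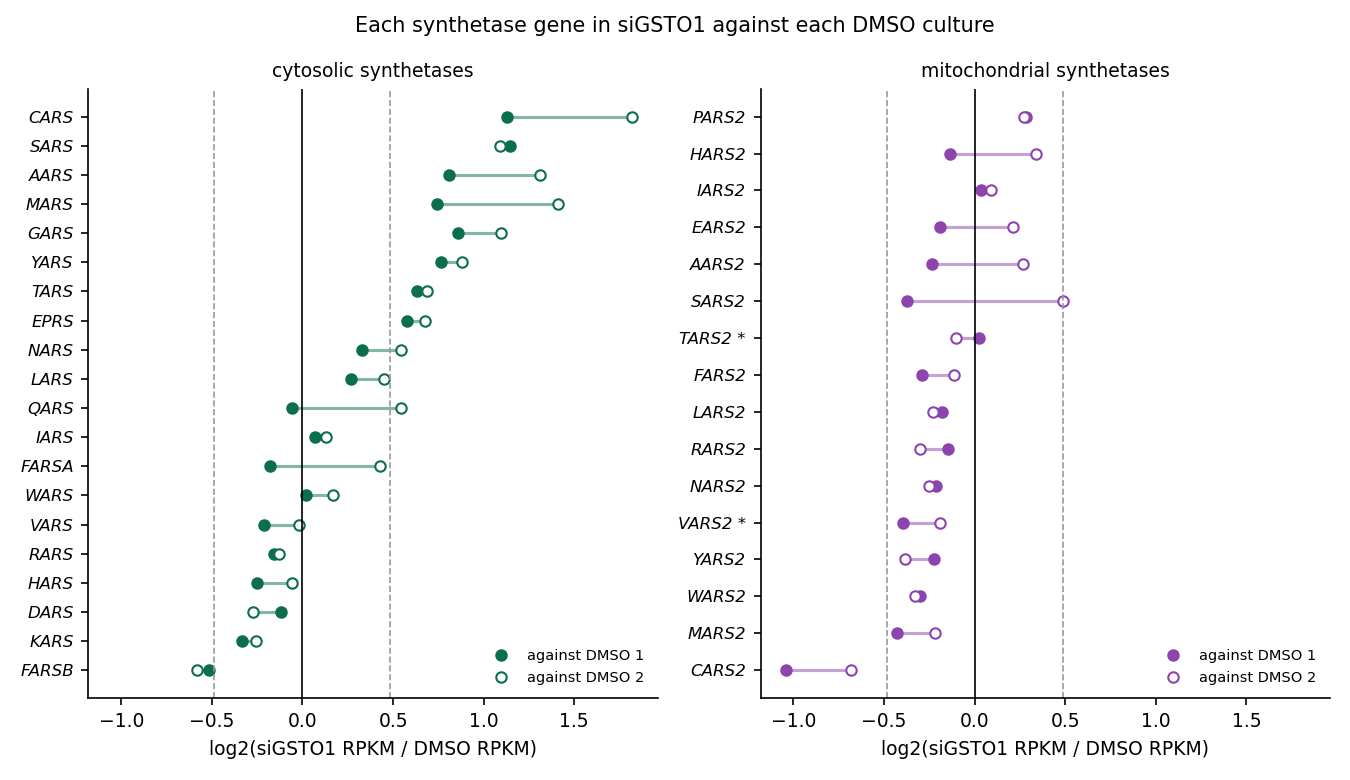
Log2 ratio of the siGSTO1 RPKM to each DMSO culture for the 20 cytosolic (left) and 16 mitochondrial genes (right), with filled points for DMSO 1, open points for DMSO 2 and dashed lines at 1.4-fold. The 2 genes marked with an asterisk were below the RPKM minimum. The 8 highest cytosolic genes clear the upper line against both cultures, and FARSB and CARS2 clear the lower one.

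The library scaling moved these counts little, although it moved the middle of all genes. Rescaling RPKM by TMM or by DESeq2 size factors shifted the median log2 fold change of all genes in siGSTO1 by −0.11 and −0.15, and turned 852 higher and 527 lower genes into 559 and 906, or 494 and 1098. With TMM factors the cytosolic count stayed at 8 higher and 1 lower and with DESeq2 size factors it was 7, with EPRS lost. The group medians became 0.17 and 0.14 for the cytosolic and −0.32 and −0.35 for the mitochondrial genes. DESeq2's Wald test called CARS (adjusted p = 0.0135) and CARS2 (adjusted p = 0.0246) alone among the members, and 133 higher and 82 lower over all genes.

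The DMSO cultures also differed from each other. In DMSO 2 relative to DMSO 1, 5 of the 20 cytosolic genes were at least 1.4-fold lower (16.3% of 7825 genes passing the filter) and none was higher (2.84% of those genes). These were CARS, MARS, FARSA, QARS and AARS, with ratios of 0.620, 0.628, 0.655, 0.659 and 0.707. For CARS the rise in siGSTO1 was 2.19-fold against the first culture and 3.52-fold against the second, and for MARS it was 1.67-fold and 2.66-fold. The edgeR standard errors rest on a spread shared across genes and do not reflect such differences of single genes. They were 0.25 for CARS and 0.25 for SARS, whose DMSO ratio was 1.04. Of the 14 mitochondrial genes that passed the filter, 2 were at least 1.4-fold lower in DMSO 2, near the 16.3% of all genes. These were SARS2 and AARS2, at ratios of 0.550 and 0.706.

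The promoters of the members were searched for sequence motifs, a feature that took no part in choosing them. RefSeq promoters on GRCh38.p14, from 250 bases before to 50 after each transcription start, were at hand for 16 cytosolic genes, all but DARS, LARS, VARS and YARS, and for 14 mitochondrial genes, all but AARS2 and VARS2. A gene with 2 listed starts was counted as holding a motif where either promoter did. The C/EBP-ATF element was searched as TGATGNAA on both strands. It was present in 7 of the 16 cytosolic promoters (43.8%), in 1 of the 14 mitochondrial ones (7.14%, YARS2) and in 1217 of 27305 genes in the table (4.46%). The 7 were AARS, CARS, GARS, IARS, MARS, NARS and TARS. Of the 8 genes that were higher in siGSTO1, 7 had a promoter in the table and 5 of these held the element (71.4%). Of the 12 others, 9 had one and 2 held it (22.2%), IARS at 1.07-fold and NARS at 1.35-fold.

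The 4 promoters of genes that rose by the edgeR test and hold the element are given first and that of SARS, which rose and holds these letters in neither of its 2 listed promoters, last. For CARS and GARS, which also have 2 listed starts, the promoter with the element is shown. Each is written 5′ to 3′ on the strand of the gene, with the element in capitals.
CARS, chr11:3057374-3057673, minus strand: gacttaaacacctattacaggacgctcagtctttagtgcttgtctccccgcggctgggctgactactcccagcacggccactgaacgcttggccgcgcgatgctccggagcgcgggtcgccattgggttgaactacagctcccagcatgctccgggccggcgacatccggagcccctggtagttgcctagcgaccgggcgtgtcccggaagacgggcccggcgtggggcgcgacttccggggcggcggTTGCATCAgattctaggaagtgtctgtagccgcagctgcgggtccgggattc
MARS, chr12:57487818-57488117, plus strand: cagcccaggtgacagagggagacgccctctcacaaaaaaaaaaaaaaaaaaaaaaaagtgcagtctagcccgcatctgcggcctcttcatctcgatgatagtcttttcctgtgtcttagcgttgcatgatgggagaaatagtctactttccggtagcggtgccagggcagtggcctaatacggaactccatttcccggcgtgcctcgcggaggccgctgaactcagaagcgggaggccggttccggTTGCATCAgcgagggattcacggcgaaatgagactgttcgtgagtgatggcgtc
AARS, chr16:70289457-70289756, minus strand: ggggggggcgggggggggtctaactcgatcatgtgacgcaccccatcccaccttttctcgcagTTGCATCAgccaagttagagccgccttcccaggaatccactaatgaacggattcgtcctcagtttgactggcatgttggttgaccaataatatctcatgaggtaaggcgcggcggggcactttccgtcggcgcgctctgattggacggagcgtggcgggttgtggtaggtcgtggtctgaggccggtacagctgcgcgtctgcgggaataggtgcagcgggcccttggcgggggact
GARS, chr7:30594628-30594927, plus strand: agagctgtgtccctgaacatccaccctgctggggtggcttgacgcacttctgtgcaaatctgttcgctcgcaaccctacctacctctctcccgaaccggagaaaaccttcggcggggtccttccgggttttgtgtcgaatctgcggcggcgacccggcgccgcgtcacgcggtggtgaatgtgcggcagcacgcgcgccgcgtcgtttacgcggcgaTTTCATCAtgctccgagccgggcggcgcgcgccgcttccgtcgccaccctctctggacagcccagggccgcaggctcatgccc
SARS, chr1:109213643-109213942, plus strand: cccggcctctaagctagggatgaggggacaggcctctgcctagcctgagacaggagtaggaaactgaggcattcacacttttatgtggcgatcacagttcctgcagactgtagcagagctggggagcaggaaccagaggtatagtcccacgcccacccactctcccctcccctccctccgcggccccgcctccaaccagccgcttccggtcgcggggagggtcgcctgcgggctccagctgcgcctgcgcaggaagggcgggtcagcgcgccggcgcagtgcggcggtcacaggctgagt

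In CARS and MARS the first base of the element lies 2 and 4 bases before the transcription start, and in GARS and AARS 33 and 187 bases before it. CARS, MARS and AARS carry TTGCATCA, the reverse complement of TGATGCAA, and GARS carries TTTCATCA. The windows of the other 3 cytosolic genes that hold the element, with 16 bases on each side, show how alike the element is across genes with unlike fold changes.
TARS: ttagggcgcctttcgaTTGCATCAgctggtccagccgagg
IARS: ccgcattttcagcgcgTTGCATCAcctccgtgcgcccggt
NARS: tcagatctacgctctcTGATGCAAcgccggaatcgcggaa

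The narrower motif TGATGCAA was in 6 cytosolic promoters (37.5%), in none of the mitochondrial promoters and in 1.08% of all genes. The core of the antioxidant response element, TGACNNNGC, was in 4 cytosolic (25%) and 2 mitochondrial promoters (14.3%), against 16.1% of all genes. The E-box CACGTG was in 1 cytosolic (6.25%) and 3 mitochondrial promoters (21.4%), against 8.78% of all genes. A match gives letters in a window and does not show that a factor was bound.

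With C1-27 for 24 h, no synthetase gene was past 1.4-fold from the mean of DMSO, in the direction of higher (3.23% of 7918 genes) or of lower levels (3.49%). Cytosolic fold changes ran from 0.817 for FARSA to 1.20 for SARS, with a median log2 fold change of 0.020, and mitochondrial ones from 0.744 for MARS2 to 1.20 for PARS2, with a median of −0.079. CARS was at 1.19-fold and CARS2 at 0.753-fold. With DMSO 2 as the sole control CARS, MARS and QARS were past the threshold at 1.55-, 1.46- and 1.43-fold (520 of 7786 genes higher). With DMSO 1 as the sole control FARSA, CARS2, MARS2 and SARS2 were past it at 0.677, 0.671, 0.694 and 0.651 (816 of 8039 genes lower). No member passed against both. With C1-27 for 4 h no member was past 1.4-fold either (0.457% of 7667 genes higher and 2.22% lower), and the range over the cytosolic genes was 0.822 to 1.08. Against DMSO 1 alone CARS, FARSA and SARS2 were at 0.676, 0.681 and 0.700 (969 of 7830 genes lower). Against DMSO 2 alone no member was past 1.4-fold (40 of 7532 genes higher and 31 lower). By edgeR, 0 of 36 members were called at 24 h (0.36% of all genes) and 0 at 4 h (0.0208%), with 0 at an unadjusted p under 0.05 at either time and 0 by DESeq2. Over all 14431 genes tested, 338 were higher and 279 lower at that unadjusted p at 24 h, and 52 and 63 at 4 h. These shares are small, so 0 of 36 does not set the members apart.

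With C1-14, no cytosolic gene was past 1.4-fold (3.71% of 7784 genes higher, 1.01% lower), the range was 0.898 to 1.33, and the highest was QARS. SARS2, the mitochondrial seryl enzyme, was at least 1.4-fold lower. Its RPKM was 1.45 and 0.799 in DMSO, 1.02 and 0.946 in C1-27 at 4 h and 24 h, 1.12 in siGSTO1 and 0.733 in C1-14. The C1-14 library was the lowest, yet close to DMSO 2, and the fold change of 0.651 did not hold against that culture alone. Against DMSO 1 alone AARS2 was at 0.677 as well (584 of 7948 genes lower), and against DMSO 2 alone QARS was at 1.67 (575 of 7647 genes higher). By edgeR, 0 of 36 members were called (0.139% of all genes), with 0 at an unadjusted p under 0.05 and 0 by DESeq2. Over all 14431 genes tested, 187 were higher and 45 lower at that unadjusted p, also a small share. The doses of C1-27 and C1-14 were not the same, so their values stand side by side without a comparison.

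**Figure D4:**
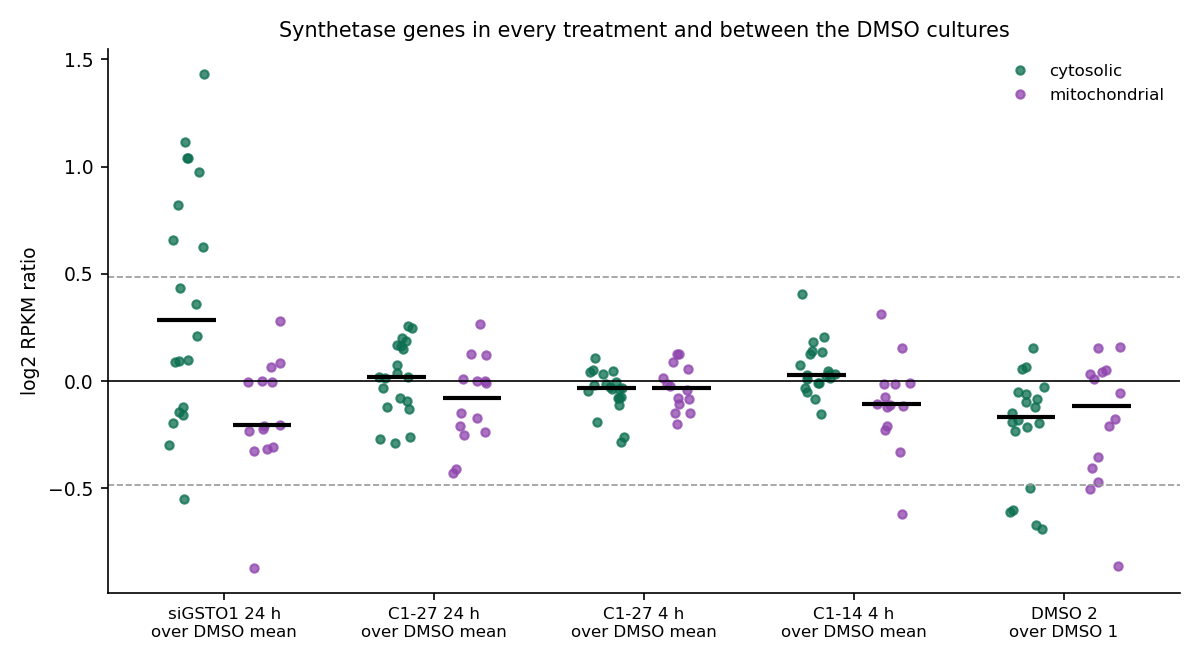
Log2 RPKM ratio of each synthetase gene above the RPKM minimum (points) and the group median (black bars) for the 4 treatments over the mean of DMSO and for DMSO 2 over DMSO 1, with dashed lines at 1.4-fold. The cytosolic genes of siGSTO1 reach 1.43, whereas in the other treatments all but SARS2 with C1-14 lie between the lines.

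The 24 h treatments were also compared directly, without the DMSO cultures in the ratio. In RPKM, 9 of the 20 cytosolic genes were at least 1.4-fold higher in siGSTO1 than in C1-27 at 24 h (8.73% of 8192 genes) and none was lower (4.6% of those genes), while no mitochondrial gene was past the threshold in either direction. The 9 were the 8 genes named above and LARS. The median log2 ratio was 0.39 over the cytosolic and −0.063 over the mitochondrial genes, against −0.038 over all. The edgeR test of the difference called CARS alone as higher (1.18% of all genes tested; log2 difference 1.13 ± 0.30, SE, adjusted p = 0.0206) and no member as lower (0.243%). CARS was not called when the count filter was dropped (adjusted p = 0.0501) or by DESeq2 (adjusted p = 0.482). For the rest of the 9 higher genes a difference between siGSTO1 and C1-27 was not shown, with edgeR adjusted p between 0.232 for MARS and SARS and 0.853 for LARS. Between C1-27 at 24 h and at 4 h, 1 of the 20 cytosolic genes was at least 1.4-fold higher in RPKM, CARS at 1.42-fold (402 of 7784 genes). None was lower (125 of 7784 genes), and no mitochondrial gene was past the threshold. In this comparison 0 members were called by edgeR (0.125% of all genes), 0 had an unadjusted p under 0.05 and DESeq2 called 0. Over all 14431 genes tested, 239 were higher and 179 lower at that unadjusted p.

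Genes that work with the synthetases were looked at from lists of selected genes. The scaffold genes of the multisynthetase complex, AIMP1, AIMP2 and EEF1E1, were at 0.743-, 0.769- and 0.871-fold in siGSTO1, and 0 of 3 passed 1.4-fold or the edgeR test. AIMP1 was at 2.41 and 2.82 RPKM in DMSO and 1.94 in siGSTO1, below both. Of 9 tRNA export, processing and elongation genes above the RPKM minimum, 0 passed 1.4-fold in siGSTO1. The largest fold change among them was that of XPOT, the nuclear exporter of tRNA, at 1.30. EEF1A1, the elongation factor that brings charged tRNA to the ribosome, was at 123 and 77.1 RPKM in DMSO and 130 in siGSTO1. It was at 82.2 and 79.9 in C1-27 at 4 h and 24 h and highest in C1-14, at 161. With C1-14, 3 of 9 genes of this list were at least 1.4-fold higher than the mean of DMSO (3.71% of all genes), and 0 against each culture. EdgeR called 0 of them there, with 3 higher at an unadjusted p under 0.05 (187 of 14431 genes). Of 5 mitochondrial partners, 0 passed 1.4-fold in siGSTO1, and their fold changes ran from 0.809 to 1.06. They include QRSL1 and GATC of the complex that turns glutamate into glutamine on its tRNA, and MTFMT, which formylates the initiator methionine. By edgeR none of these 3 lists had a call in siGSTO1, and DESeq2 called 0. At an unadjusted edgeR p under 0.05 there was 1 scaffold gene, AIMP1, and none of the others. Over all genes in siGSTO1, 10.5% were at least 1.4-fold higher and 6.48% lower. EdgeR called 3.69% of all genes tested higher and 1.21% lower, and 1450 and 743 of 14431 reached the unadjusted p. In lists this short, counts of 0 are near these shares and do not set the genes apart.

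The amino acid response list held 23 genes, of which 20 were above the RPKM minimum in siGSTO1. CHAC1 and PHGDH passed it only through their siGSTO1 level, as their DMSO means were 0.0655 and 0.498 RPKM. Both are among the higher genes counted next, so their entry depended on the rise. At least 1.4-fold higher levels than in each DMSO culture were seen for 12 of the 20 (6.49% of all genes) and lower ones for none (3.29% of all genes), with a median log2 fold change against the mean of DMSO of 0.86. By edgeR 9 of 21 tested genes rose (3.69% of all genes tested) and 0 fell (1.21%). CHAC1, which breaks down glutathione, was at 0.0832 and 0.0477 RPKM in DMSO and 1.97 in siGSTO1 (30.2-fold), which rests on 6 counts in each DMSO culture and was 23.7- and 41.4-fold against them singly. DDIT4, an inhibitor of mTORC1 signalling, was at 0.887 and 0.546 and rose to 9.70 (13.5-fold, and 10.9- and 17.8-fold against the cultures singly). SLC7A11, the cystine importer, was at 0.562 and 0.540 and rose to 3.62 (6.56-fold), and ASNS, which makes asparagine, was at 0.883 and 0.681 and rose to 4.62 (5.91-fold). Their edgeR adjusted p in siGSTO1 were 1.25e-11, 8.97e-13, 7.46e-24 and 7.06e-16.

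ATF4 itself was at 16.4 and 11.7 RPKM in DMSO, 12.2 and 13.9 in C1-27 at 4 h and 24 h, 14.9 in C1-14 and 17.0 in siGSTO1, a fold change of 1.22 that did not pass. With C1-27 for 24 h, 5 of 19 genes of the list above the RPKM minimum were past 1.4-fold higher (3.23% of all genes) and 1 lower (3.49%). Against DMSO 1 alone these counts were 4 and 4, against DMSO 2 alone 7 and 0, and against each culture 4 and 0. Over all genes they were 377 and 816 of 8039, 520 and 174 of 7786, and 150 and 71 of 7918. SLC7A11 was among the higher genes at 1.78 RPKM (3.24-fold) and was the single edgeR call of the list at that time (adjusted p = 1.97e-08). CHAC1 was at 0.219 RPKM there, below the minimum. The other genes above the minimum that passed 1.4-fold against each culture in that library were DDIT4, DDIT3 and SESN2. They were at 2.31-, 2.03- and 1.70-fold of the mean of DMSO. The synthetase genes stood at 0.744- to 1.20-fold there, and a link between the lists was not tested. With C1-27 for 4 h SLC7A11 was at 2.17-fold (edgeR adjusted p = 0.0105). Several genes of this list are prominent in the study's own account of these cultures, so their rise is not independent of how the list was drawn up.

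**Figure D5:**
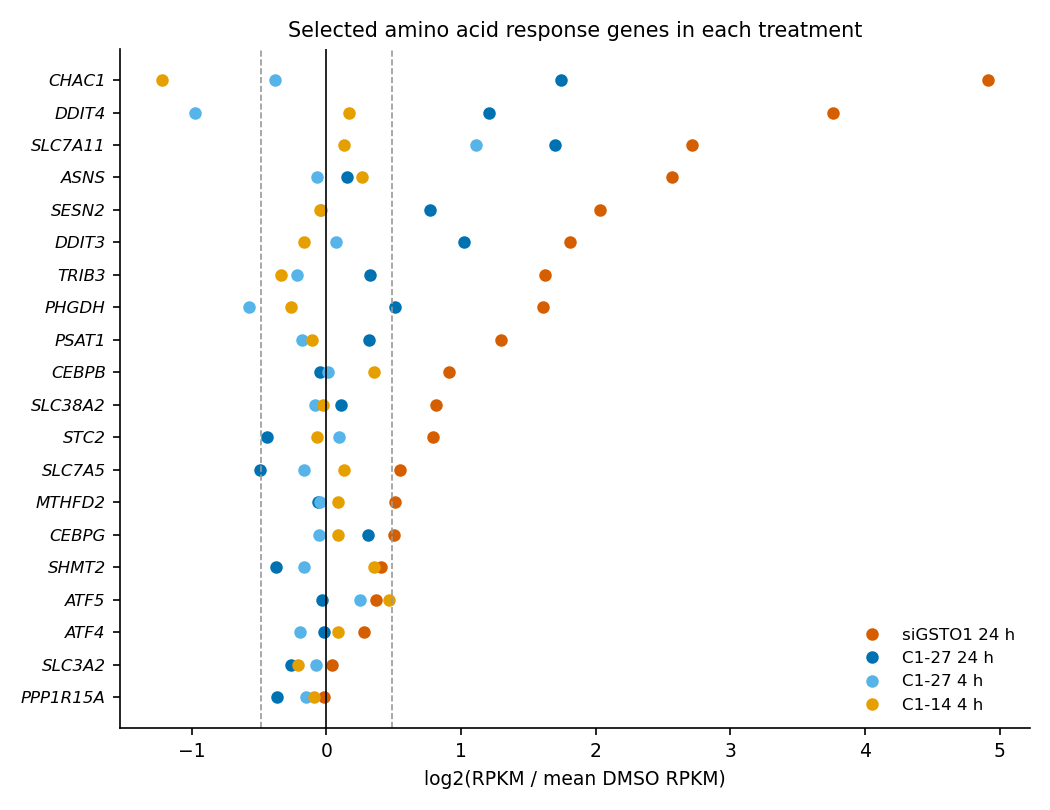
Log2 ratio of RPKM to the mean of DMSO for the 20 amino acid response genes above the RPKM minimum in siGSTO1, in each of the 4 treatments, with dashed lines at 1.4-fold. In siGSTO1 the points reach 4.91 for CHAC1, and ATF4 lies at 1.22-fold.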

How the data were processed

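Bru-seq libraries of 6 HCT116 cultures were analysed. According to the submitters' processing notes, reads were handled with CASAVA 1.8.2, Bowtie 0.12.8, TopHat 1.4.1 and bedtools 2.16.2 on hg19. The counting program, its settings and whether every library was strand specific are not given in the sources used here. The files deposited by the authors give, per gene and per strand, an expected count of reads over exons and introns, which need not be whole, a signal that is this count per base and was not used here, and an RPKM value.

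Fold changes were computed from the deposited RPKM without a pseudocount. Expected counts were rounded and tested for genes longer than 300 bp that reached 10 counts in 2 or more libraries (edgeR 4.0.16, R 4.3.3, TMM, quasi-likelihood test, Benjamini-Hochberg adjustment within each comparison), with all 6 libraries in 5 groups. The spread came from the 2 DMSO cultures alone (1 residual degree of freedom, common dispersion 0.0381), and the single treated cultures were assumed to vary like them. The prior degrees of freedom were estimated as infinite, so the spread was fully shared across genes. The difference of a single gene between the DMSO cultures therefore did not enter its own standard error or p-value. Standard errors were derived from the F statistic of each gene. DESeq2 1.42.0 served as the alternative tool. Python 3.11.15, pandas 2.3.3, numpy 2.4.6 and matplotlib 3.10.9 were used for the rest.

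The members, lists, motifs and tests were chosen with earlier results of these data known. Values in every library are given for members past 1.4-fold against both DMSO cultures or with an edgeR adjusted p under 0.05, and for the 3 largest changes in each direction among mitochondrial members. From the other lists, up to 4 genes with the largest change were to be named. ATF4, KARS, FARSA, AIMP1, EEF1A1, XPOT, SARS2, PHGDH, DDIT3 and SESN2 were named in addition, after their values were seen. Promoters came from RefSeq and were matched by current symbol, and their GRCh38.p14 positions are separate from the hg19 positions of the files.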

Additional observations from a re-analysis of the deposited data

How the results depend on the processing

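The 8 higher cytosolic genes in siGSTO1 ranged from 7 to 10 over the alternatives of control culture, scaling, pseudocount (0.1 RPKM) and RPKM filter. Each DMSO culture in turn was left out, which leaves no residual degree of freedom in edgeR, so fold changes were compared without a test. Leaving out a DMSO culture gave 0 to 1 higher mitochondrial genes in siGSTO1, 1 without the first culture (SARS2, with 1381 of 7987 genes higher). For C1-27 at 24 h it gave 0 to 3 higher and 0 to 1 lower cytosolic and 0 to 3 lower mitochondrial genes, and with DESeq2 size factors there was 1 lower mitochondrial gene. For C1-27 at 4 h it gave 0 to 2 lower cytosolic and 0 to 1 lower mitochondrial genes. For C1-14 it gave 0 to 1 higher cytosolic and 0 to 2 lower mitochondrial genes. The 5 cytosolic edgeR calls in siGSTO1 became 1 with DESeq2, 4 with RLE size factors or no count filter (GARS lost) and 6 with the legacy, robust fit (YARS gained, adjusted p = 0.0387), an alternative chosen after seeing the data. The call of CARS against C1-27 at 24 h became 0 with no count filter and with DESeq2. CARS2 stayed called in each of these fits against DMSO. The narrower motif gave 0% of mitochondrial promoters. Over all genes, DESeq2 called 133 higher and 82 lower in siGSTO1 against 533 and 175 by edgeR, 10 and 8 against 28 and 24 in C1-27 at 24 h, and 19 and 3 against 171 and 35 between these treatments. Without the RPKM filter 4874 genes were higher and 1339 lower in siGSTO1. Medians near 0 changed sign: the cytosolic one of C1-27 at 24 h, 0.020, was −0.064 without the second DMSO culture, −0.033 with TMM and −0.051 with DESeq2 size factors. For C1-27 at 4 h, −0.033 (cytosolic) and −0.032 (mitochondrial) became 0.053 and 0.051 without the first culture and 0.014 for each with DESeq2 size factors, and for C1-14 the cytosolic 0.030 became −0.022 without the second. The balance of all genes past 1.4-fold in siGSTO1 turned with the scaling, as given above. No called value changed direction, and 8 values of single members lost the adjusted threshold. The cause of these differences was not tested. The labels share no replicate numbers between groups, and no paired analysis was possible because each treatment had 1 culture. With 1 culture for each treatment, the spread within a treatment was not measured.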

Other observations

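Several synthetase genes lie close to another gene in the hg19 positions of the files. HARS and HARS2, the cytosolic and mitochondrial histidyl enzymes, start 46 bp apart on opposite strands, and in siGSTO1 they were at 0.897- and 1.06-fold, with neither passing the test. Because these genes are alike in sequence, reads of their exons could be split between them. KARS starts 49 bp from TERF2IP, RARS2 starts 49 bp from ORC3 and WARS starts 74 bp from WDR25. SARS2 overlaps MRPS12, a mitochondrial ribosomal protein gene, by 189 bp at their start. MRPS12 was at 1.39 and 0.927 RPKM in DMSO and 1.19 in C1-14, and SARS2 at 1.45 and 0.799 in DMSO and 0.733 in C1-14. YARS overlaps S100PBP on the opposite strand by 458 bp, and S100PBP was at 1.45 and 1.39 RPKM in DMSO and 1.42 in siGSTO1, where YARS was 1.77-fold higher. It is not stated that every library was strand specific. Antisense counts were 0 over SARS2 and 3 to 16 over YARS per library, so few reads were assigned to the opposite strand there. Gene length, over which nascent reads are averaged, ran from 8.81 to 84.7 kb for the cytosolic genes and from 3.09 kb for the single-exon MARS2 to 510 kb for FARS2 among the mitochondrial ones. In a gene as long as FARS2, RNA labelled for 30 min covers only part of the transcript from any 1 polymerase.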
